A study of Mus musculus with 4 samples.

Results

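A set of 10 genes of the transforming growth factor beta (TGF-beta) pathway were followed in mouse bone-marrow progenitors with and without Asxl1: the ligand gene Tgfb1, the latency gene Ltbp1, the receptor genes Tgfbr1 and Tgfbr2, the SMAD genes Smad2, Smad3, Smad4 and Smad7, the co-repressor gene Skil and the target gene Tgfbi. They were chosen by symbol, as single-locus rows of the deposited table that hold one of these names, and all 10 were found among 17956 single loci. The libraries were made from Lin-Kit+ cells of C57BL/6 mice, a fraction without the surface markers of mature blood lineages that holds stem and progenitor cells. Of the 4 libraries, 2 were wild type (WT) and 2 were Asxl1-/- (KO), each from 2000000 cells. The labels give no age, no treatment, and neither the kind of deletion nor whether cells were pooled. The ASXL1 protein acts on chromatin, and its gene is a recurrent target of mutation in myeloid malignancy.

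TGF-beta is secreted in a latent complex that LTBP proteins tether to the extracellular matrix. Once released, the ligand is bound by TGFBR2, which activates TGFBR1, and TGFBR1 phosphorylates SMAD2 and SMAD3. These enter the nucleus with SMAD4 and switch genes on or off, while SMAD7 and the SKIL protein (SnoN), themselves products of target genes, restrain the signal. In marrow the pathway is known for holding stem cells in quiescence, and megakaryocytes and platelets are known stores of latent ligand.

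The libraries held between 46597871 and 83586916 recovered reads, and both KO libraries were deeper than both WT libraries. Asxl1 stood at 9742 and 9472 in WT and at 146 and 135 in KO, so every library matched its label. Kit, the receptor that the sort used, was at 17739 and 16149 in WT and 18483 and 18889 in KO. Of the 8 progenitor markers that include Kit, 1 rose (Cd33) and 2 fell (Flt3 and the row that joins Cd34 with its neighbours). These shares were 12.5% higher and 25% lower, against 11.9% and 8.97% of all tested loci. The list had a median log2 fold change of -0.21 and a sum in KO of 0.830 times that of WT. Replicate 1 of each genotype had high Xist (103006 in WT, 89290 in KO) and replicate 2 high reads at the Y-linked locus of Ddx3y, so replicate number and sex cannot be told apart. Nothing in the labels states that replicates were separate animals, and p-values measure only the spread between these libraries. All values are normalised read counts on the scale of the deposited table unless stated otherwise. Differences are log2 fold changes of KO over WT on the log2(value + 1) scale with their standard error, and a locus is called when its limma p, adjusted by the Benjamini-Hochberg method over 13764 tested loci, is under 0.05.

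Of the 10 members, all of which passed the filter on low values, Tgfbi, Ltbp1 and Skil were higher in KO, Tgfb1 was lower and 6 were not called. Over all tested loci 11.9% were called higher, 8.97% lower and 20.9% in either direction. Both KO libraries lay above both WT libraries in 6 members and below them in 2, against 32.5% and 33.6% of all tested loci (66.1% either way), so separation by itself marks no member. The median log2 fold change was 0.12 over the members and -0.0062 over all tested loci.

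**Figure D1:**
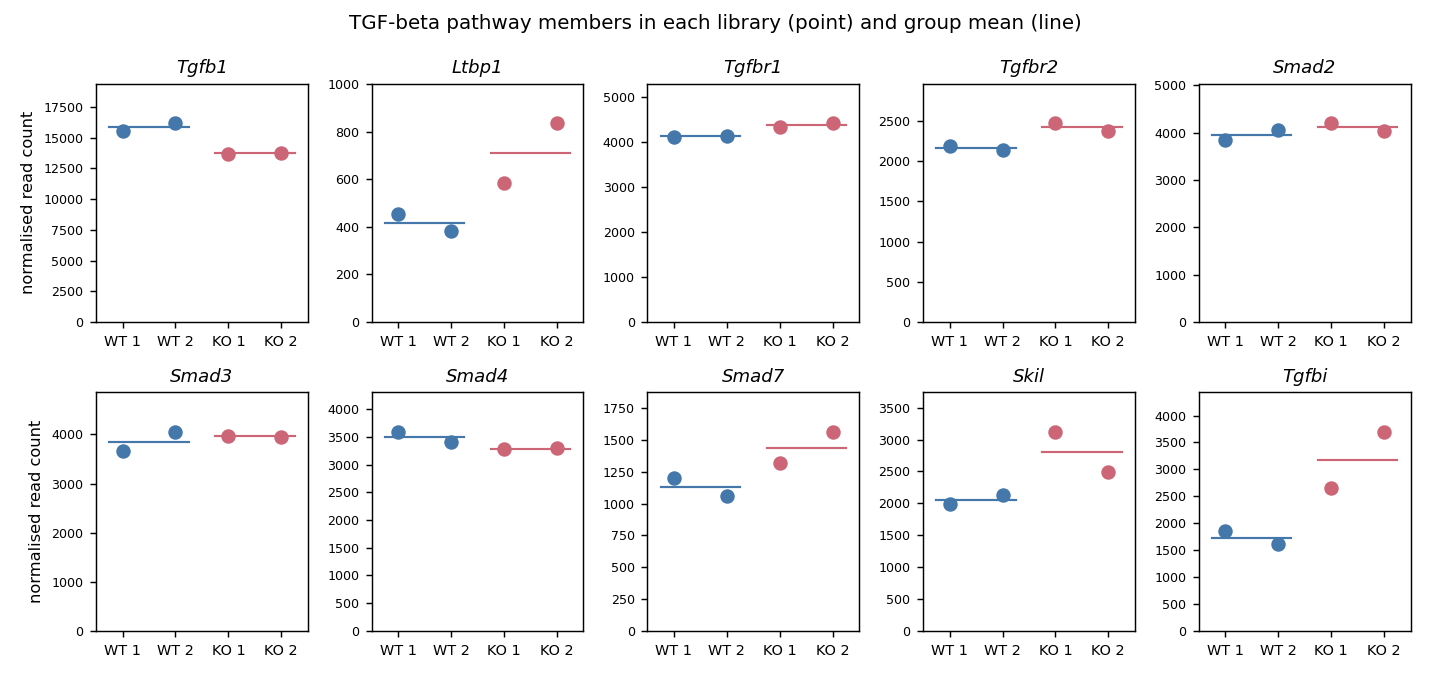
Normalised read count (y axis, from 0) of each member in WT replicates 1 and 2 (blue) and KO replicates 1 and 2 (red), with a line at each group mean. Tgfbi, Ltbp1 and Skil lie higher in both KO libraries, Tgfb1 lies lower, and the KO libraries stand further apart than the WT libraries in Ltbp1, Tgfbi and Skil.

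The promoters of the called members are shown because they hold, or lack, the short element to which SMAD3 and SMAD4 bind. RefSeq promoters (GRCm38.p6, 250 bases before to 50 after a start) were at hand for Tgfb1, Ltbp1, Tgfbr1, Tgfbr2, Smad3 and Tgfbi, but not for Skil, Smad2, Smad4 or Smad7. In the sequences below, capitals mark CAGAC or its reverse complement GTCTG, searched on both strands. Ltbp1 has 2 promoters in the table, at chr17:75005279-75005578, plus strand, and at chr17:75178531-75178830, plus strand. That of Tgfbi lies at chr13:56609336-56609635, plus strand, and that of Tgfb1 at chr7:25686752-25687051, plus strand.
Tgfbi: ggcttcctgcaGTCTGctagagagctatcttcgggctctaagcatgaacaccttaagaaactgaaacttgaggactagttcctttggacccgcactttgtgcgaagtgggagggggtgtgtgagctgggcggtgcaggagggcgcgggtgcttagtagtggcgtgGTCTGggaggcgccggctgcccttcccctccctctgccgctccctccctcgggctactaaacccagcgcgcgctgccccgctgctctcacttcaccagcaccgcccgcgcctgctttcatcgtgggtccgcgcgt
Ltbp1, upstream start: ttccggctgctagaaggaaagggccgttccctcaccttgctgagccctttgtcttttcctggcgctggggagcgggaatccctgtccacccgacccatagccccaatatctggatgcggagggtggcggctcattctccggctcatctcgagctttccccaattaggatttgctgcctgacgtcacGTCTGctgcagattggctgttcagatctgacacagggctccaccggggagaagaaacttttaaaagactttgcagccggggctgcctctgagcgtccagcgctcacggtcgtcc
Ltbp1, downstream start: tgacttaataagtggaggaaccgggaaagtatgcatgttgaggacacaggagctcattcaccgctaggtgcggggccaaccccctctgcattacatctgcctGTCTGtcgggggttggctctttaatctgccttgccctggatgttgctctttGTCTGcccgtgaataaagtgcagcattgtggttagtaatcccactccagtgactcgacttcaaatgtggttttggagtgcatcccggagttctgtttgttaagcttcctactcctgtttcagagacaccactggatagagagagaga
Tgfb1: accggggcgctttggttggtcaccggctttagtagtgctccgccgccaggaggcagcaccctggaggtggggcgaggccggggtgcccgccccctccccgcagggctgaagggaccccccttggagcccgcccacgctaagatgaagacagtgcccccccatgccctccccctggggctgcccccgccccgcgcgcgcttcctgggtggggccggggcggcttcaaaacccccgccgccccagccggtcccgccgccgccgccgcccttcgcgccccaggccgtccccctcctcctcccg
The Tgfbi promoter held 2 matches, the Ltbp1 promoters held 1 and 2, and the Tgfb1 promoter held 0. Among the 8 promoters of the 6 members, 5 held at least 1 match, against 49.6% of 32851 promoters of the same length. The longer CAGACA, which contains CAGAC (reverse complement TGTCTG), was in 2 of the 8 and in 21.0% of all promoters, and the palindrome GTCTAGAC was in 0 of the 8 and in 0.213% of all. Reads were counted per locus, so use of the 2 Ltbp1 starts could not be separated.

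Among the ligand and latency genes, Tgfb1 was the most abundant member and fell slightly. Tgfb1 (chromosome 7, 26472020 to 26490015, mm9) stood at 15507 and 16159 in WT and at 13692 and 13770 in KO. Both KO libraries were below both WT libraries, and they were close to each other. The KO level was 0.867 times that of WT (95% interval 0.802 to 0.938), a log2 fold change of -0.21 ± 0.05 (adjusted p = 0.0292). The call was lost without WT replicate 1 (-0.23, adjusted p = 0.119) and without WT replicate 2 (-0.18, adjusted p = 0.197). In the 12 other alternatives it was kept.

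Ltbp1, which encodes a latent TGF-beta binding protein, rose. Ltbp1 (chromosome 17, 75404868 to 75791109) was at 452 and 381 in WT and at 584 and 834 in KO. The groups did not overlap, but KO replicate 2 was 1.43 times KO replicate 1, a ratio that 5.36% of tested loci reached. Its log2 fold change was 0.75 ± 0.20 (adjusted p = 0.0464). It was 0.37 between the replicate 1 libraries and 1.13 between the replicate 2 libraries. The call was lost in 6 of 14 alternatives, with adjusted p-values from 0.0506 (upper-quartile scaling) to 0.182 (without WT replicate 2). Without KO replicate 2 the difference was 0.49 (adjusted p = 0.0804). In this bulk RNA, a change in the number of cells of a type and a change in RNA per cell cannot be told apart, for Ltbp1 as for every locus described here.

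Both receptor genes were slightly higher in KO without passing the threshold. Tgfbr2 (chromosome 9, 115996812 to 116084481), the ligand-binding receptor, was at 2190 and 2139 in WT and 2469 and 2379 in KO. Its difference was 0.16 ± 0.07 (adjusted p = 0.129). Tgfbr1 (chromosome 4, 47366176 to 47427796), the kinase that acts on SMADs, was at 4126 and 4144 in WT and 4338 and 4420 in KO. Its difference was 0.08 ± 0.05 (adjusted p = 0.308). The KO values of each receptor gene lay above its WT values, and the upper ends of the 95% intervals were 1.25-fold for Tgfbr2 and 1.16-fold for Tgfbr1.

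The receptor-activated SMAD genes and their partner gene Smad4 were not called, and together with Tgfbr1 they had the smallest differences of the members. Smad2 (chromosome 18, 76401578 to 76465385) was at 3845 and 4048 in WT and 4197 and 4045 in KO, with overlapping groups (0.06 ± 0.06, adjusted p = 0.483). Smad3, which shares its row with the transcript AK214683 (chromosome 9, 63494573 to 63605918), was at 3663 and 4047 in WT and 3960 and 3958 in KO. Its KO values lay between the WT values, and the difference of 0.04 ± 0.07 (adjusted p = 0.704) turned to -0.013 with upper-quartile scaling and to -0.032 without WT replicate 1. Smad4 (chromosome 18, 73798666 to 73863395), whose product all branches of the family share, was at 3589 and 3408 in WT and 3279 and 3297 in KO (-0.09 ± 0.06, adjusted p = 0.329). The 95% intervals ran from 0.944-fold to 1.16-fold for Smad2, from 0.916-fold to 1.154-fold for Smad3 and from 0.849-fold to 1.04-fold for Smad4. A missed threshold does not show equal levels, and these intervals give the sizes the libraries leave possible.

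Of the 2 inhibitors, Skil rose and Smad7 missed the threshold. Skil (chromosome 3, 30993982 to 31021499), the gene of the SMAD co-repressor SnoN, was at 1983 and 2127 in WT and 3117 and 2492 in KO. All KO values were above the WT values, with KO replicate 1 the higher, opposite to the order in Ltbp1 and Tgfbi. KO exceeded WT by 0.44 ± 0.12 on the log2 scale (adjusted p = 0.0455), by 0.65 between the replicate 1 libraries and by 0.23 between the replicate 2 libraries. The call was lost in 6 of 14 alternatives, with adjusted p-values from 0.0537 (no filter) to 0.19 (without WT replicate 1). Without KO replicate 1 the difference was 0.28 (adjusted p = 0.056).

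Smad7 (chromosome 18, 75527018 to 75555588), the inhibitory SMAD gene, was at 1201 and 1059 in WT and 1320 and 1561 in KO. The groups were separate and the difference was 0.35 ± 0.12 (adjusted p = 0.0851). It was 0.14 between the replicate 1 libraries and 0.56 between the replicate 2 libraries, and the value without 1 library ran from 0.23 (without KO replicate 2, adjusted p = 0.199) to 0.47 (without KO replicate 1, adjusted p = 0.0284), the latter past the threshold. Relative to Smad3 within each library, Smad7 stood at 0.328 and 0.262 in WT and at 0.333 and 0.394 in KO. The same ratio for Skil stood at 0.541 and 0.526 in WT and 0.787 and 0.630 in KO.

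Tgfbi, a secreted matrix protein gene named for its induction by TGF-beta, differed most among the members. Tgfbi (chromosome 13, 56710963 to 56740700) was at 1851 and 1614 in WT and at 2648 and 3692 in KO. The lowest KO value exceeded the highest WT value, and KO replicate 2 was 1.39 times KO replicate 1, which 5.73% of tested loci reached. The log2 fold change was 0.86 ± 0.16 (adjusted p = 0.0186), a 1.81-fold difference with a 95% interval of 1.37 to 2.38. The difference was 0.52 between the replicate 1 libraries and 1.19 between the replicate 2 libraries. The call was lost in 1 of 14 alternatives, without WT replicate 2 (0.76, adjusted p = 0.0751).

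**Figure D2:**
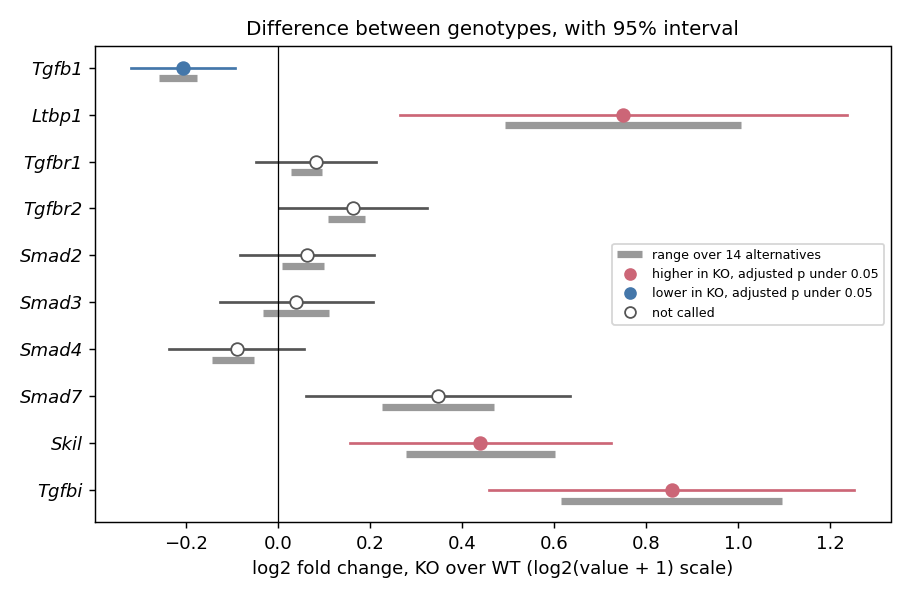
Log2 fold change of KO over WT for each member (x axis) with its 95% limma interval, filled points where the adjusted p was under 0.05, and a grey bar for the range over 14 alternatives. Tgfbi (0.86) and Ltbp1 (0.75) have the largest differences and wide intervals, and Tgfb1 (-0.21) is the called member below 0.

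Tgfbi is made by monocytes and macrophages among other cells, and Ltbp1 and Tgfb1 by megakaryocytes, so markers of these types, and of the others the sort could hold, were read in the same libraries. The summed level of 14 monocyte and macrophage markers came to 138938 and 161911 in WT and 219837 and 201161 in KO, but most of it came from the locus of the lysozyme genes Lyz2 and Lyz1, which neutrophils also express. Of the 14 markers 2 rose (14.3%) and 4 fell (28.6%), with a median of -0.26. Over all tested loci 11.9% were called higher and 8.97% lower, the shares against which each marker list here is to be read. Ly6c2 was at 29888 and 29395 in WT and 31464 and 30535 in KO, and F13a1 at 11677 and 12627 in WT and 9945 and 12006 in KO. The 12 megakaryocyte and platelet markers summed to 24628 and 25356 in WT and to 39960 and 38492 in KO. Of these 4 rose, 0 fell and 8 were not called, with a median of 0.41. Most of the rise in the sum came from rows shared with other genes. The row of Selp with F5 and AK149537 was at 5978 and 6545 in WT and 13032 and 13436 in KO. That of Gp1bb with Sept5 and Cdcrel-1 was at 3717 and 3994 in WT and 8062 and 7668 in KO. In the mature neutrophil list 10 of 11 tested markers rose (90.9%), with a KO sum 1.79 times that of WT. The list was led in level by Ngp, at 315865 and 382974 in WT and 706265 and 618774 in KO. Next came Ltf, at 183526 and 209299 in WT and 380873 and 347417 in KO. S100a9 was at 186747 and 207923 in WT and 349263 and 349255 in KO. By mean value Ngp, Ltf and S100a9 stood at percentiles 99.99, 99.96 and 99.96 of tested loci, so neutrophil transcripts were abundant in both genotypes. Of 9 tested stroma and endothelium markers 0 rose and 2 fell, with summed levels of 7812 and 8068 in WT and 6517 and 5850 in KO. The erythroid list had 5 of 10 markers higher and 0 lower (median 0.47, sum 1.59 times that of WT). Lymphoid markers went the other way, with 3 of 8 B-cell markers lower and 0 higher (median -0.58, sum 0.658 times) and 4 of 10 T- and NK-cell markers lower and 0 higher (median -0.78, sum 0.777 times). No matched marker of the 8 lists was at 0 in all libraries, but 4 of 13 matched stroma and endothelium loci were too low to test. A value above 0 does not by itself show that a cell type was present. The part of these cell types in the results for Tgfbi, Ltbp1 and Tgfb1 was not tested.

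The ratios of Smad7 and Skil to Smad3 given above are not per length and serve only to compare libraries. Levels were otherwise compared between members per length, as RPKM (reads per kilobase of merged exon, scaled to the reads of the library), with exon lengths from the GENCODE M21 annotation. This scale divides by the total of all reads, on which KO lies slightly lower than on the deposited scale. The annotation used for counting is not stated, and the Smad3 row also holds AK214683. The order of members at close levels therefore depends on the lengths used. In WT, Tgfb1 stood highest at 118 and 122, followed by Smad4 (16.6 and 15.7) and Smad3 (11.9 and 13.1). Tgfbr1 (10.7 and 10.6) and Tgfbi (11.3 and 9.80) came next, and their order is not set, since the values of Tgfbr1 lay between those of Tgfbi. Smad2 (7.41 and 7.76) and Skil (4.89 and 5.22) were lower. The levels of Tgfbr2 (4.43 and 4.31) and Smad7 (4.54 and 3.98) overlapped, and Ltbp1 was the lowest at 1.09 and 0.908. In KO, Tgfbi came next after Tgfb1 (99.4 and 100.05) at 15.4 and 21.5, above Smad4 at 14.5 and 14.6, and Ltbp1 was still lowest at 1.34 and 1.91.

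**Figure D3:**
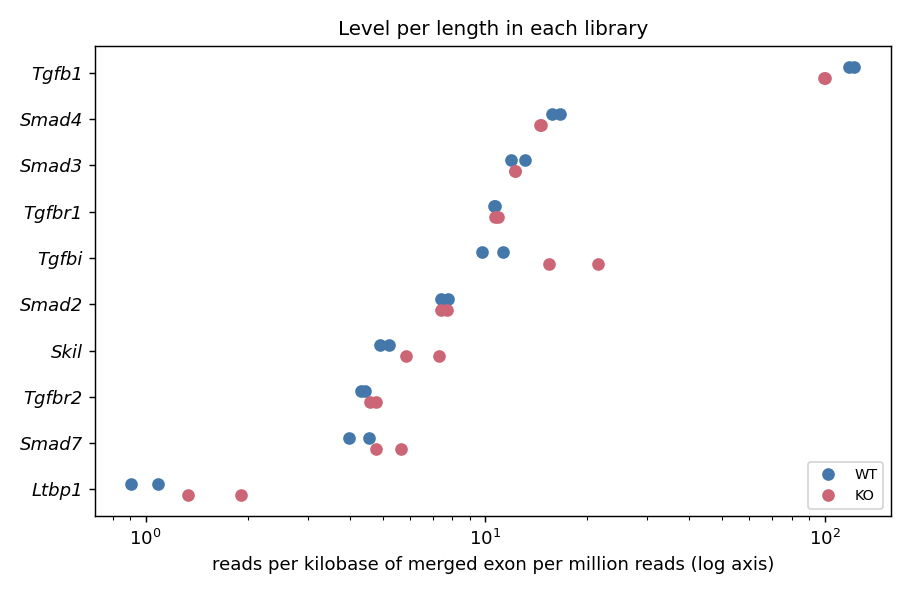
RPKM, reads per kilobase of merged exon scaled to the reads of the library (log axis), for each member in WT (blue) and KO (red) libraries, ordered by the WT mean. Tgfb1 lies at 99.4 to 122 in the 4 libraries, Ltbp1 at 0.908 to 1.91, and Tgfbi moves from the level of Tgfbr1 in WT to above Smad4 in KO.

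Within 100 kb of the 10 members lay 25 other tested loci, of which 1 was called higher and 2 lower, against 20.9% called in either direction over all tested loci; a count this small says little about the neighbourhoods. Tgfbi has Smad5 as a neighbour, 63.7 kb away on chromosome 13, and the pair differed in opposite directions. Smad5, a SMAD of the bone morphogenetic protein (BMP) branch, was at 5059 and 5018 in WT and at 3777 and 3859 in KO (-0.40 ± 0.05, adjusted p = 0.00675). The neighbours Axl (51.5 kb from Tgfb1, -0.63 ± 0.13, adjusted p = 0.022) and Dym (80.4 kb from Smad7, 0.24 ± 0.06, adjusted p = 0.0429) were the other called loci, named after their values were seen.

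The remaining genes of the pathway were taken from 8 lists by role, 123 genes of which 103 loci were tested. Of these 29 (28.2%) were higher in KO and 7 (6.80%) lower, with a median of 0.10. Over all tested loci 11.9% were higher and 8.97% lower, with a median of -0.0062. The lists were written with earlier results of these data known and give no independent support for a direction. Without WT replicate 1 the counts were 11 higher and 1 lower, and without WT replicate 2 they were 17 and 3.

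Among the other ligand genes the shares called higher, 14.3% and 12.5% of the 2 lists, lay near the 11.9% of all tested loci. Of 7 tested TGF-beta and activin ligand genes 1 rose: Inhba, the activin A subunit gene, was at 609 and 542 in WT and 881 and 827 in KO (0.57 ± 0.11, adjusted p = 0.0215). The call was lost without WT replicate 1 and without WT replicate 2. Tgfb2 averaged 10.8 ± 4.90 in WT and 13.5 ± 1.93 in KO (SD, n = 2), and Tgfb3 24.7 ± 9.04 and 19.4 ± 2.84. Among 8 tested BMP ligand and antagonist genes 1 rose, the ligand gene Gdf3, from 190 and 234 in WT to 424 and 487 in KO (1.10 ± 0.17, adjusted p = 0.0104). Its call was lost without WT replicate 1.

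Genes for latency and activation differed in both directions, with 6 of 16 tested higher and 3 lower (median -0.08). These shares were 37.5% and 18.8%, against 11.9% and 8.97% of all tested loci. Thbs1, whose product thrombospondin-1 can release active TGF-beta from its latent complex, was at 3326 and 5243 in WT and 42906 and 30383 in KO (3.11 ± 0.24, adjusted p = 0.00175). Lrrc32, which encodes the cell-surface anchor GARP for latent TGF-beta, was at 67.3 and 53.7 in WT and 125 and 120 in KO (1.01 ± 0.25, adjusted p = 0.0366). Its call was lost when any library was left out and without the filter. Mmp9, a gelatinase gene that neutrophils express, was at 10954 and 14868 in WT and 24171 and 30056 in KO (1.08 ± 0.16), beside the higher neutrophil markers given above. Whether that list has a part in Mmp9, or any of the marker lists a part in Thbs1, was not tested. Fbn1, the gene of the microfibril protein that LTBPs bind, fell from 263 and 188 to 118 and 114 (-0.93 ± 0.23), a call lost without WT replicate 1, WT replicate 2 or KO replicate 2.

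Among 14 tested receptor and co-receptor genes outside the members, 2 rose and 1 fell. These shares of 14.3% and 7.14% lay near the 11.9% and 8.97% of all tested loci. Bmpr1a, a type I BMP receptor gene, was at 117 and 185 in WT and 535 and 632 in KO (1.98 ± 0.25, adjusted p = 0.00574). Acvrl1, which encodes the type I receptor ALK1, was at 469 and 685 in WT and 1680 and 1550 in KO (1.51 ± 0.18, adjusted p = 0.00529). The groups did not overlap in either gene. Fkbp1a, the gene of a protein that binds type I receptors and holds them inactive, fell from 6215 and 5669 to 3942 and 3689 (-0.64 ± 0.07). Its row also carries the name FKBP12-T1. Fkbp1a lies 1.80 Mb from Asxl1 on chromosome 2. Other called genes named here also lie on that chromosome. Their distances from Asxl1 are 0.610 Mb (Id1), 3.49 Mb (Tgif2), 11.6 Mb (Mmp9), 14.2 Mb (Snai1), 28.0 Mb (Fbn1), 35.2 Mb (Thbs1) and 108 Mb (Zeb2). Whether this location has a part in their values was not tested.

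Of the 3 tested SMAD loci of the BMP branch, 2 fell and 0 rose, against 8.97% lower and 11.9% higher over all tested loci. Beside Smad5, Smad1 fell from 1163 and 1309 to 949 and 909 (-0.41 ± 0.10, adjusted p = 0.0356). The inhibitory Smad6 averaged 55.0 ± 13.7 in WT and 61.5 ± 5.25 in KO (SD, n = 2) and was not called (0.18 ± 0.31). Smad9, a receptor-activated SMAD gene of that branch, was too low to test, with 2 and 5 reads in WT and 13 and 16 in KO. The Smad1 call was lost without WT replicate 1, WT replicate 2 or KO replicate 2, and that of Smad5 without WT replicate 1.

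Regulators and partners of SMADs gave small differences, mostly upward. In the regulator list 27.8% and in the partner list 35.3% were called higher, against 11.9% of all tested loci. Of 18 co-repressors and negative regulators 5 rose and 0 fell (median 0.11), among them the ubiquitin ligase gene Rnf111 (0.40 ± 0.06), the co-repressor gene Tgif2 (0.38 ± 0.09), the phosphatase gene Ppm1a (0.34 ± 0.05) and the ubiquitin ligase gene Wwp1 (0.27 ± 0.06). RNF111, also called Arkadia, degrades SMAD7 and SnoN and so promotes the signal, although the list is named for inhibition. Of 17 partners and genes outside the SMAD branch 6 rose and 0 fell (median 0.09), with the acetyltransferase genes Crebbp and Ep300 at 0.37 each and the zinc-finger factor genes Zeb2 at 0.27 and Zeb1 at 0.21. All 8 of these calls were lost without WT replicate 1, the Zeb1 call (adjusted p = 0.0498) was lost in 11 of 14 alternatives, and those of Tgif2, Wwp1 and Zeb2 were lost without WT replicate 2. Tgif2 lies 3.49 Mb from Asxl1, and its call was also lost without KO replicate 1. The Tgif2 row also carries the name 5430405H02Rik, and the Zeb2 row the names Gm13476 and mKIAA0569.

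Of 20 tested genes known as transcriptional targets of TGF-beta, 8 (40%) rose and 1 (5%) fell, with a median of 0.58. Over all tested loci 11.9% were higher and 8.97% lower. Snai1, a repressor gene of epithelial-mesenchymal transition, was at 36.3 and 32.9 in WT and 210 and 153 in KO (2.34 ± 0.27, adjusted p = 0.00465). Plaur, the urokinase receptor gene, was at 2423 and 2909 in WT and 7433 and 7587 in KO (1.4997 ± 0.09, adjusted p = 0.00125). Bhlhe40, whose row also carries the names AK002866 and AK039720, rose from 942 and 1050 to 2665 and 2180 (1.28 ± 0.12). Id1 rose from 640 and 604 to 1144 and 920 (0.72 ± 0.13). Id1 lies 0.610 Mb from Asxl1, and its call was lost without either WT library. These genes also answer to other signals, and neutrophils and monocytes express Plaur. The classical target Ctgf was too low to test, at means of 8.80 in WT and 6.64 in KO, as were Cdkn2b, Snai2 and Timp1, and the cell-cycle inhibitor genes Cdkn1a (0.10 ± 0.12) and Cdkn1b (0.02 ± 0.05) were not called.

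**Figure D4:**
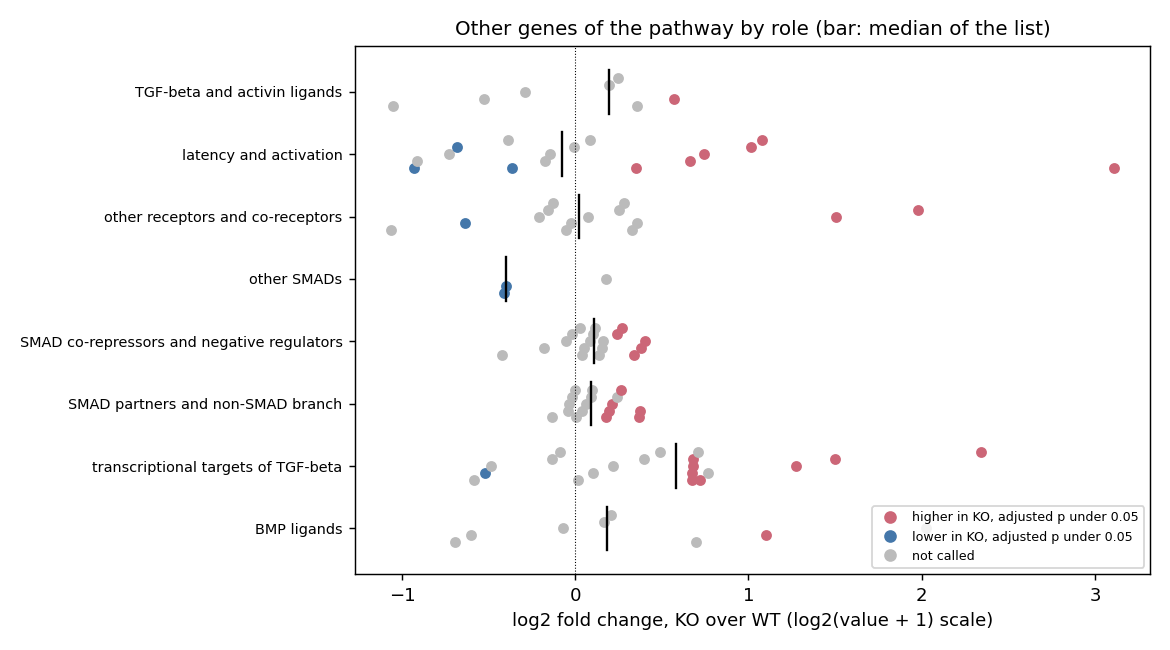
Log2 fold change of KO over WT (x axis) for each tested gene of the 8 pathway lists (points), red where called higher, blue where called lower and grey where not called, with a bar at the list median. The targets have the highest median (0.58), the BMP-branch SMADs the lowest (-0.40), and Thbs1 lies farthest out at 3.11.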

How the data were processed

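RNA was sequenced from 4 libraries. The submitters' processing notes name the aligner STAR 2.3.1t and the build mm9; how reads were counted, on which annotation and strand, and how they were scaled is not stated there. The authors deposited 1 signal value per locus, a read count multiplied by 1 factor per library: 100% of values were whole multiples of the smallest, to within 0.001 of a read. The recovered reads numbered 46597871 and 49764454 (WT) and 83586916 and 76688583 (KO).

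Single loci entered the fit if their value reached 10 in 2 or more libraries, 13764 in all. Values were transformed to log2(value + 1) and compared by genotype alone in limma 3.58.1 (R 4.3.3), with the prior variance following the mean. The script was tested on simulated data, where it recovered 64% of 1.5-fold and 76% of 2-fold changes, and 7.82% of its calls were false. Smaller changes were not simulated. Alternatives on the recovered reads were edgeR 4.0.16, which called 2839 loci against 2875 here, DESeq2 1.42.0 and limma-voom. Merged rows were not divided, and 2 rows on another chromosome than the listed gene were left out. Members and lists were chosen with earlier results of these data known. The text names all members, up to 4 called genes with the largest change per pathway list, and the 3 most abundant markers of a marker list. Other genes named were chosen after their values were seen.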

Additional observations from a re-analysis of the deposited data

How the results depend on the processing

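Asxl1 kept its call and direction in all alternatives, as did the direction of every member but Smad3 (-0.013 with upper-quartile scaling, and -0.032 to 0.11 when a library was left out, the lowest without WT replicate 1). The 3 higher members became 1 with no filter, with upper-quartile scaling and with limma-voom, and 0 to 3 when a library was left out. The lower member was kept in all alternatives except those without a WT library (range 0 to 1). Leaving out a library gave 11 to 29 higher and 1 to 9 lower pathway genes, and 603 to 1714 higher and 266 to 1542 lower loci in all. The low ends of these ranges came without a WT library, where the spread rests on the KO pair alone (Spearman correlation 0.9943 over tested loci, against 0.9959 for the WT pair); a library left alone in its group is assumed to vary like the others. Upper-quartile scaling gave 1909 lower loci against 1235, and 42.6% of calls higher against 57.0%; it shifted the median of all loci to -0.059. Replicate numbers are shared between genotypes without a label that pairs them; deviations of same-numbered libraries correlated at 0.25 over loci. The replicate block gave 3 higher and 1 lower members, 1906 higher and 1533 lower loci, and cost 1 of 23 named pathway calls, Zeb1. Counting limits the least abundant member little: Ltbp1 had 349 and 312 reads in WT and 771 and 1011 in KO.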

Other observations

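Rows that join a member with a neighbouring locus held almost no reads. The row joining Tmem91 and Tgfb1 had 1 and 1 reads in WT and 3 and 4 in KO, a total of 2 against 7, and no difference was detectable at this depth (two-sided exact binomial test against the share of KO reads, p = 0.498). The row joining B9d2 and Tgfb1 had 1 read in WT and 2 in KO, and the row joining Dym and Smad7 had 1 in each genotype.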
